A study of Mus musculus with 8 samples.

Results

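The genes described here carry bile acids through the intestinal epithelium or sense them there: Slc10a2, Fabp6, Osta, Ostb, Nr1h4 and Fgf15. They were taken by name from a table of 17041 genes. All 6 are in it, and Osta and Ostb are the older symbols of Slc51a and Slc51b. The RNA came from the proximal large intestine of ApoE knockout mice, which lack apolipoprotein E and are prone to atherosclerosis. Germ-free animals of this genotype were gavaged at 8 weeks of age and dissected at 26 weeks. One group, core, carried a defined gut community that makes no butyrate (3 libraries, the only ones of this group analysed here). The other, core plus R. intestinalis, carried the same community with the butyrate producer Roseburia intestinalis added (5 libraries, called the Roseburia libraries from here). The knockout is shared by both groups, and neither a germ-free group nor a wild-type one is among the samples used here. The labels give no mouse, cage or isolator for a library, so p-values measure the spread between libraries, part of which may be technical.

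Bile acids reach the gut from the liver and are reclaimed mainly in the ileum, with further uptake in the large intestine. Slc10a2 encodes the apical sodium-dependent transporter that takes them into the enterocyte, and Fabp6 encodes the cytosolic protein that binds them there. Osta and Ostb encode the subunits of the basolateral exporter, which works only as a pair. Inside the cell bile acids activate the nuclear receptor FXR, encoded by Nr1h4. In the ileum FXR switches on Fabp6, Osta, Ostb and Fgf15, a hormone that lowers bile acid synthesis in the liver.

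Estimated depth ran from 4598182 to 15345326 reads per library, and 1 estimated read was worth 0.457 to 1.59 normalized units. The tissue label was set against epithelial markers. All 12 genes of a list of colon epithelium were read above the lower limit of the test, with Muc2 between 75618 and 243421. Markers of the small intestine were mixed. Of that list, Lct, Apoa4 and Apoc3 were at most 7.08 in any library, while Fabp2 was 1664.88 to 6699.60, Apob 2117.98 to 3931.01, and Sis up to 1370.14. Of the Paneth cell genes, Defa24 was above 0 in only Roseburia replicate 3 (6.36), while Lyz1 was 53.42 to 253.53 and Reg3g reached 230.75.

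The upstream sequence of Fabp6 is shown because it holds close matches to the site of the receptor that Nr1h4 encodes. It is the 250 bases before the RefSeq transcription start, on the minus strand of mouse build GRCm38.p6. Capitals mark matches, with at most 2 mismatches over 12 fixed letters, to the inverted repeat IR-1 that FXR binds (AGGTCANTGACCT), which reads the same on either strand.
Fabp6, chr11:43601563-43601812: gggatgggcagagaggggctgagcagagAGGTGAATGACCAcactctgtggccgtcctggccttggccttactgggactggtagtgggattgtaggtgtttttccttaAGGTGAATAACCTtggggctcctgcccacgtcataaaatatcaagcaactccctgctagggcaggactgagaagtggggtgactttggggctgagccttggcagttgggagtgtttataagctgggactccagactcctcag
The Fabp6 window holds 2 IR-1 matches, each with 2 mismatches, at −222 and −142 from the start site. Such a match is present in 0.959% of 32851 promoter windows of this length. The windows of Slc10a2, Nr1h4, Osta (Slc51a) and Ostb (Slc51b) held none at this limit. A match is a run of letters and does not show that a factor bound it.

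Slc10a2, the uptake transporter, had the widest span between libraries of the 5 members tested. Its normalized values were 49.05, 13.87 and 509.71 in core replicates 1 to 3. In Roseburia replicates 1 to 5 they were 59.68, 817.84, 414.01, 949.16 and 80.53. Each group thus held both low and high libraries, the ranges overlapped, and the highest value was 68.4 times the lowest. Group means were 191 ± 277 (SD, n = 3) in core and 464 ± 410 (SD, n = 5) in the Roseburia libraries. The log2 difference was 1.93 (SE 1.19, 95% interval −0.70 to 4.56, limma adjusted p = 0.607), with 13 to 906 estimated reads behind each value. In tissue RNA of this kind, fewer expressing cells and less RNA per cell cannot be told apart.

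Fabp6, the intracellular carrier, was 33.33, 38.32 and 126.28 in core replicates 1 to 3. It was 20.70, 67.93, 129.74, 345.78 and 62.63 in Roseburia replicates 1 to 5. Replicate 4 of that group was the highest library and its replicate 1 the lowest, a 16.7-fold span that covers the whole core range. The group means of 66.0 ± 52.3 (SD, n = 3) and 125 ± 129 (SD, n = 5) gave a log2 difference of 0.60 (SE 0.76, 95% interval −1.08 to 2.29, limma adjusted p = 0.754).

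Of the exporter subunits, Osta was 147.62, 39.39 and 1382.18 in core replicates 1 to 3 and 212.99, 2215.94, 797.61, 2053.43 and 94.59 in Roseburia replicates 1 to 5. Ostb was 623.80, 454.53 and 1068.78 in the core libraries and 664.36, 1204.87, 846.49, 1245.04 and 527.92 in the others. Osta spanned 56.3-fold and Ostb 2.74-fold, in nearly the same order of libraries, and in neither gene were the groups apart. The log2 difference between the communities was 1.55 for Osta (SE 1.23, 95% interval −1.17 to 4.28, limma adjusted p = 0.650). For Ostb it was 0.34 (SE 0.33, 95% interval −0.39 to 1.07, limma adjusted p = 0.694). Their ratio also differed between libraries. The Osta value divided by the Ostb value ran from 0.0867 in core replicate 2 to 1.84 in Roseburia replicate 2. These values are not divided by transcript length. Per kilobase of the longest protein-coding transcript, Ostb was above Osta in every library, with 1699.4 against 846.4 in Roseburia replicate 2.

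Nr1h4, the bile acid receptor, was well read in every library, with 389 to 1975 estimated reads. Its values were 619.04, 448.50 and 1127.32 in core replicates 1 to 3 and 538.16, 1105.24, 902.68, 1517.61 and 589.25 in Roseburia replicates 1 to 5. The span was 3.38-fold, and the ranges of the groups overlapped. Means of 732 ± 353 (SD, n = 3) and 931 ± 402 (SD, n = 5) gave a log2 difference of 0.35 (SE 0.37, 95% interval −0.47 to 1.16, limma adjusted p = 0.713).

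Fgf15, the hormone that FXR induces in the ileum, was at the limit of detection. It was listed at 0 in 7 libraries and at 2.16 in Roseburia replicate 2, which stands for 2 estimated reads of 61545434 in all 8 libraries. A count of 0 leaves room for up to 3 reads, a value of 1.37 to 4.77 depending on the library, so no fold is given. The authors' deposited table lists a raw ratio of 5.31 for Fgf15, which rests on those 2 reads. The gene did not reach the mean of 10 that the test required, and 5 of the 6 members were tested. Nr0b2, the short heterodimer partner that FXR induces in liver and ileum, was also near 0, with at most 2.67 and 4 estimated reads in any library. Nr1h4 was thus at 448.50 or more in libraries where the transcripts of both of these targets were almost absent. The other FXR targets named above, Fabp6, Osta and Ostb, were read in every library, at 20.70, 39.39 and 454.53 or more. The activity of the receptor was not tested.

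**Figure D1:**
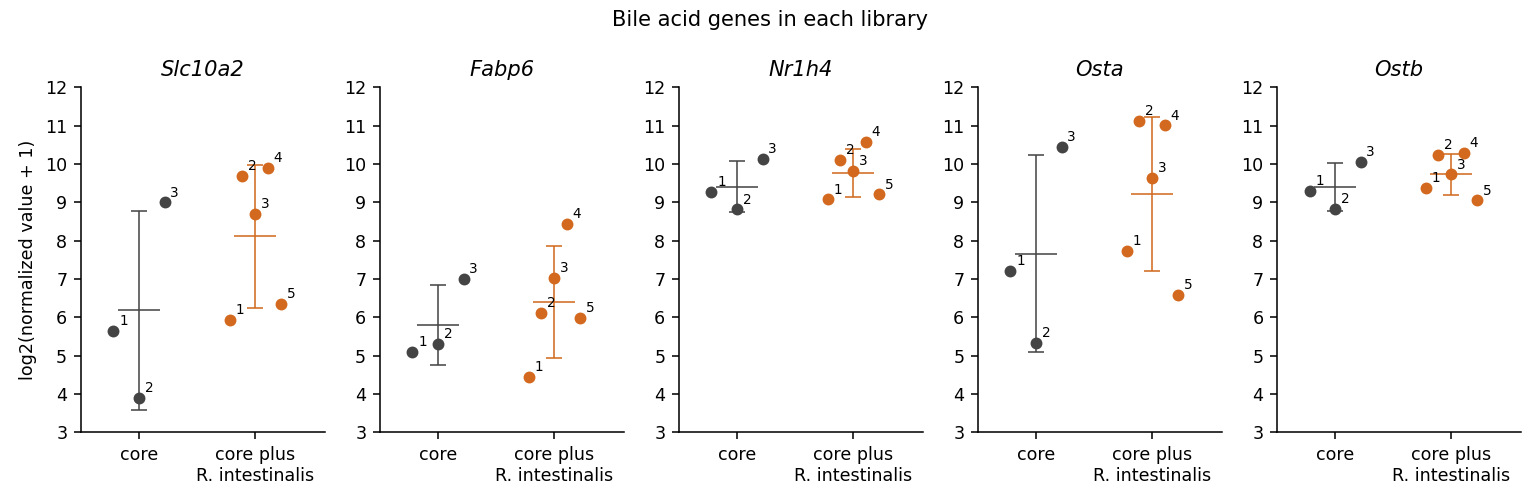
Log2(normalized value + 1) of the 5 members tested in each library (points, numbered by replicate), with bars for the mean and SD of each group, core (n = 3) and Roseburia libraries (n = 5). In each panel the groups overlap, and core replicate 3 lies with the upper libraries of the other group.

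Per kilobase of the longest protein-coding transcript in GENCODE M21, Ostb was the most abundant member, with a mean level of 1170 units per kb over the 8 libraries. Nr1h4 followed at 425, Osta at 332, Fabp6 at 215 and Slc10a2 at 87.1, and Fgf15 was at 0.149. Ostb was above Nr1h4 in 8 of 8 libraries. The order of the middle members was not fixed: Osta exceeded Nr1h4 in 2 libraries, Fabp6 exceeded Osta in 3, and Slc10a2 exceeded Fabp6 in 1. These levels assume that the longest transcript is the one expressed.

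The comparison of the communities asks whether a butyrate producer changes expression in the large intestine. None of the members passed. By limma, 0 of the 5 had an adjusted p below 0.05, as did 0% of the 13020 genes tested (smallest adjusted p 0.503), and 0 had an unadjusted p below 0.05, against 8.13% of all. The ranges of the groups were apart in 0 of 5 members and in 5.84% of genes tested. In the authors' deposited table, 82 genes (0.481%) had a posterior probability of differential expression of at least 0.95, and the 6 members had 0 to 0.01. All 5 differences were above 0, with a median of 0.61, beside a median of −0.003 over all genes tested. The members were high in the same libraries, so they are not separate observations.

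The intervals show what these libraries could resolve. For Slc10a2 the interval runs from 0.615-fold to 23.6-fold, and for Osta from 0.445-fold to 19.4-fold, on the log2(value + 1) scale. For Nr1h4 and Ostb the upper ends are 2.24-fold and 2.10-fold. Single core libraries moved the estimates by more than 1.5 times: the Slc10a2 difference was 3.34 without core replicate 3 (adjusted p = 0.591) and 0.79 without core replicate 2 (adjusted p = 0.765). Those of Osta were 2.94 and 0.39, of Nr1h4 0.71 and 0.05, and of Ostb 0.68 and 0.06. The Fabp6 difference was 1.202 without core replicate 3 and 0.10 without Roseburia replicate 4.

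The libraries with high values of the members came from both communities. Core replicate 3 and Roseburia replicates 2, 3 and 4 had the 4 highest values of Slc10a2. They also had the 4 highest values of Osta, Ostb, Nr1h4 and Fabp6, the other 4 members tested. These libraries were picked out by Slc10a2 after the values were seen, so Slc10a2 itself meets the pattern by definition. The same pattern holds for 3.33% of all genes tested. The step down from the lowest of these to the next library was wide for Slc10a2 (414 against 80.5) and Osta (798 against 213). It was narrower for Nr1h4 (903 against 619) and Ostb (846 against 664), and for Fabp6 it was 67.9 against 62.6, from 63 and 49 estimated reads. Because Slc10a2 and Osta fall into separate sets of libraries, no correlation between members was tested.

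**Figure D2:**
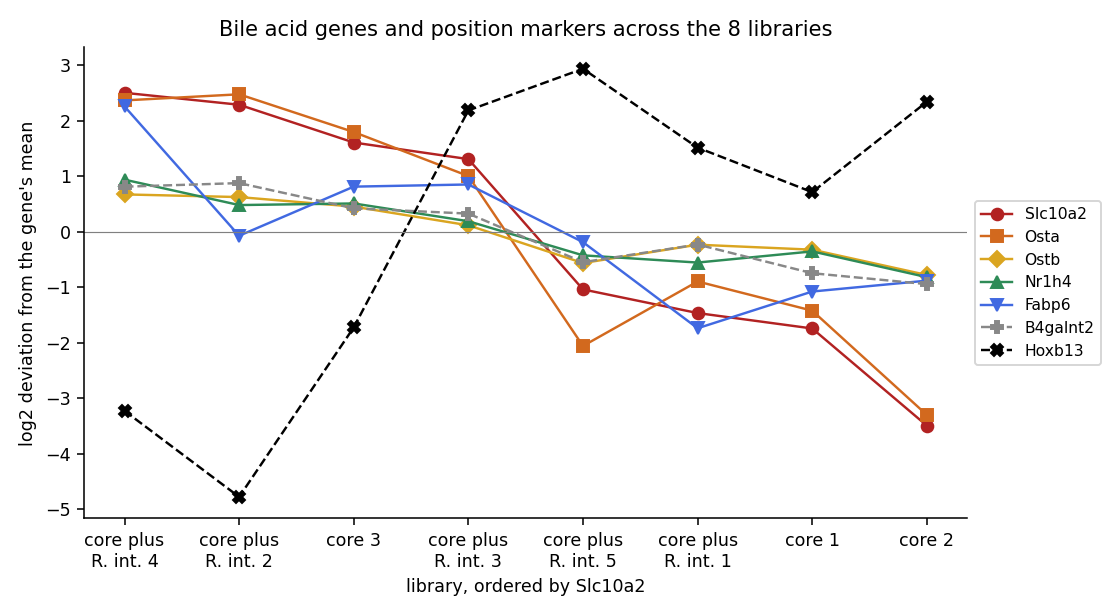
Log2 deviation of each gene from its own mean over the 8 libraries, which are ordered by Slc10a2. Solid lines are members. Dashed lines are Hoxb13 and B4galnt2, both from the list of distal large intestine position, which ran opposite to each other in most libraries. Slc10a2 and Osta drop after the first 4 libraries, and Hoxb13 is lowest in the first 3.

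The spread within groups was large beside that of other genes. The residual SD of log2(value + 1) was 2.21 for Osta and 2.13 for Slc10a2, each above that of 99.7% of genes tested. Fabp6 had 1.34, above 99.1% of genes, Nr1h4 0.64, above 90.7%, and Ostb 0.57, above 86.2%. The median over all genes tested was 0.30.

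**Figure D3:**
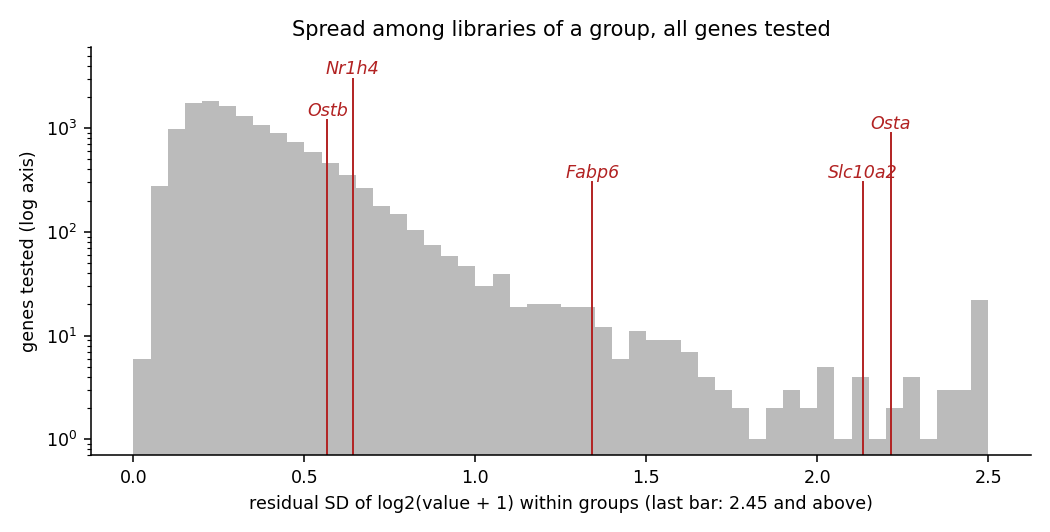
Residual SD within groups for the 13020 genes tested (grey bars, log count axis), with the 5 members marked in red. Osta (2.21) and Slc10a2 (2.13) lie in the far right tail, and Ostb (0.57) and Nr1h4 (0.64) near the bulk.

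Of the genes of position along the gut, Hoxb13 was opposite to the members in most libraries, and B4galnt2 and Hoxd10 had their 4 highest values in the same libraries as the members. Hoxb13, a homeobox gene of the distal large intestine, was 25.26 in core replicate 3, and 2.16 and 8.26 in Roseburia replicates 2 and 4. In the other 5 libraries it was 141.27 to 663.31. Roseburia replicate 3 stood between, with high Slc10a2 (414.01) and high Hoxb13 (393.78). B4galnt2, a glycosyltransferase gene, ran from 10571 to 15476 in the 4 libraries with high Slc10a2 and from 4380 to 7185 in the rest. Of the list of distal large intestine position, 6 of 10 genes were tested. Its summed level was 5048 to 11490 in core and 6702 to 15658 in Roseburia libraries. Most of that sum is B4galnt2, which ran opposite to Hoxb13 in most libraries, so the sum is not a measure of position. Hoxa11 averaged 76.1 ± 17.3 and 73.4 ± 25.1. The other tested genes of the list, described after their values were seen, were split. Hoxd10 was 16.90 to 97.05 in the 4 libraries with high Slc10a2 and 0 to 7.45 in the rest. Hoxa13 was lowest in the same 3 libraries as Hoxb13, at 6.47 to 28.70 against 44.44 to 173.84 elsewhere. Hoxd13 was 1.18 to 4.59 in those 3, but lower still in Roseburia replicate 1 (0.67).

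With the Hoxb13 level of each library as a covariate the Slc10a2 difference was 1.54 (SE 0.73, adjusted p = 0.284). With that of B4galnt2, a covariate chosen after seeing the data, it was −0.14 (SE 0.39, adjusted p = 0.834), and the other 4 members turned below 0 as well. B4galnt2 was itself highest in the same libraries as the members. That fit therefore cannot separate its level from theirs, and no conclusion is drawn from it. B4galnt2 itself averaged 6897 ± 3819 in core and 10759 ± 4368 in Roseburia libraries. Whether the dissected pieces differed in position was not tested, since the labels give none per library.

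Small intestinal markers went the same way in part. Of 16 listed genes, 10 were tested, and in 5 of those the same 4 libraries were highest: Sis, Cubn, Enpep, Apob and Fabp1. The share over all genes tested was 3.33%. Sis, the brush border disaccharidase, was between 429.44 and 1370.14 there and between 11.35 and 28.12 elsewhere. Enpep, a brush border aminopeptidase, averaged 382 ± 196 in core and 549 ± 360 in Roseburia libraries. Apob, the chylomicron protein, averaged 2847 ± 530 and 3018 ± 684. Fabp2, a fatty acid carrier, Alpi, Rbp2, Mttp and Apoa1 did not follow. Fabp2 (6699.60) and Alpi (295.60) were highest in Roseburia replicate 1. Rbp2 was 94.41 to 113.22 in core replicate 3 and Roseburia replicates 2 and 4, and 136.25 to 205.65 in the rest. The summed list was 4425 to 10489 in core and 4669 to 11174 in the other group, and its part in the members' values was not tested. Markers of the gut wall were lower on average in the Roseburia libraries, with 0 past the limma threshold. Of these, 9 of 10 fibroblast genes were below 0 (median −0.60), with a summed level of 9505 to 11108 in core and 6774 to 8486 in Roseburia libraries. Of smooth muscle genes 9 of 10 were below 0 (median −0.36), and of adipocyte genes 7 of 7 (median −1.73). The ranges of the groups were apart in 4 of 10 fibroblast, 3 of 10 smooth muscle and 1 of 7 adipocyte genes, against 5.84% of all genes tested. The summed fibroblast levels did not overlap between the groups, and those of smooth muscle and adipocyte genes did. Smooth muscle summed to 147872 to 201470 in core and 97700 to 172669 in Roseburia libraries, and adipocyte genes to 1777 to 4531 and 483 to 2605. Of general epithelial genes 9 of 10 were above 0 (median 0.21), and their summed level was 78002 to 87148 and 74934 to 107194. At an unadjusted limma p below 0.05, 2 of 10 epithelial genes were higher. Lower at that limit were 4 of 10 fibroblast, 4 of 10 smooth muscle and 4 of 7 adipocyte genes. The share of all genes tested, in either direction, was 8.13%. The part of these tissues in the members' values was likewise not tested.

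The genes most like each member were sought among 9590 genes with a mean of at least 50, by Pearson's r of log2(value + 1) over the 8 libraries, given as a description. For Slc10a2 they were Osr2 (r = 0.984), Aqp11 (0.983), Osta (0.975) and Akr1c19 (0.974). Osr2, a transcription factor gene, was at most 15.34 in the 4 libraries with low Slc10a2 and at least 189.42 in the others. For Osta they were Nts (0.996), the gut peptide neurotensin, Hoxb7 (0.995), Ugdh (0.994) and Ostb (0.993). Nts ran from 2.13 to 44.07 in the libraries with low Osta and from 177.70 to 593.07 in the rest.

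For Ostb the closest were Glrx (0.994), Osta (0.993), Car8 (0.991) and Dfna5 (0.990), and for Nr1h4 Slc6a14 (0.983), Sqrdl (0.976), Akr1c19 (0.973) and Sis (0.971). Fabp6 had other companions with lower values: Slc7a9 (0.967), Grsf1 (0.939), Psmd9 (0.936) and Ms4a8a (0.930). Of these 4, Grsf1 ran only from 247.62 to 304.47, so a high r does not mean a like span. Osta and Ostb were each among the 4 genes closest to the other.

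Beyond the members, 62 genes of bile acid handling were listed in 6 groups, of which 61 were in the table and 41 were tested. By limma 0 passed in either direction, and 3 of the 41 were higher and 0 lower at an unadjusted p below 0.05, a share near the 8.13% of all genes tested. Differences were above 0 in 32 and below 0 in 9, with a median of 0.23 against −0.003 over all genes tested. Of all 13020 genes tested, 6452 were above 0. Listed genes that vary with the same libraries are not separate observations. Among those 3 are Vdr and Abcc3, which passed only where limma weighted the libraries (adjusted p 0.0416 and 0.0445), a setting in which 455 genes passed and 0 members did.

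Among the receptors and their partners, 7 of 11 genes were tested, with 5 above 0 and a median of 0.15. Vdr, the vitamin D receptor, which also binds lithocholic acid, was 1415.84, 2220.53 and 2494.56 in core replicates 1 to 3. It was 5545.65, 3638.20, 3870.66, 2683.56 and 2948.98 in Roseburia replicates 1 to 5. Here the groups did not overlap, as in 2 of the 41 bile acid genes tested beyond the members and in 5.84% of all genes tested. The log2 difference was 0.86 (SE 0.25, unadjusted p = 0.0058, limma adjusted p = 0.588), higher in 5 of 5 libraries than the core maximum. Rxra and Rxrb encode heterodimer partners of FXR. Rxra averaged 229 ± 36.4 and 316 ± 146, and Rxrb 82.2 ± 34.2 and 119 ± 35.2. Gpbar1, the membrane bile acid receptor, was between 1.06 and 11.35.

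Among regulators of ileal bile acid genes, 12 of 13 were tested, with 12 above 0 and a median of 0.34. The oxysterol receptor genes Nr1h2 and Nr1h3 averaged 351 and 480, and 158 and 189. Ppara and Nr3c1 were the 2 regulators highest in the same 4 libraries as the members. Ppara, the fatty acid receptor PPAR-alpha, ran from 361.62 to 580.13 there and from 120.15 to 237.70 elsewhere.

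Of the 10 other bile acid transporters, 4 were tested and 2 were above 0. Abcc3, a basolateral exporter of conjugated organic anions, averaged 682 ± 68.7 and 1188 ± 573 without overlap (log2 difference 0.70, SE 0.29, unadjusted p = 0.0357, limma adjusted p = 0.588). Its highest value, 2180.74, was in Roseburia replicate 1, without which the difference was 0.45. Slco2b1 averaged 83.2 ± 3.29 and 104 ± 16.2, and the apical exporter Abcc2 averaged 45.1 ± 15.9 and 34.4 ± 6.58. Abcc4 was the 1 transporter lowest in the 4 libraries where the members were highest. The hepatocyte transporters Slc10a1 and Abcb11 were at most 3.90 and 1.59.

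Of 15 synthesis and conjugation genes, 9 were tested, with 6 above 0 and a median of 0.12. The hepatic enzymes Cyp7a1, the rate-limiting step of the classical route, and Cyp8b1 were at most 2.54 and 2.13. Cyp27a1, which starts the alternative route, averaged 228 ± 27.2 and 318 ± 89.5, Hsd3b7 307 ± 23.9 and 338 ± 41.5, and Slc27a2 41.5 ± 4.33 and 64.0 ± 43.6. Hsd17b4 was the 1 gene of this list highest in the same 4 libraries as the members.

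Of 9 detoxification genes 6 were tested, all 6 above 0 (median 0.34), and 5 were highest in the same 4 libraries: Cyp3a13, Ugt1a1, Ugt2b34, Ugt2b5 and Gsta1. That pattern holds for 3.33% of all genes tested, and genes that share it are not separate observations. Ugt1a1, a glucuronosyltransferase, was 577.58, 444.64 and 2596.72 in core replicates 1 to 3 and 1091.67, 4072.16, 1979.45, 3244.25 and 597.78 in Roseburia replicates 1 to 5. The libraries split as they do for Slc10a2, with no test of this likeness, and the log2 difference was 1.01 (SE 0.68, limma adjusted p = 0.614). It was 0.53 without core replicate 2 and 1.80 without core replicate 3. Its exons are shared within the Ugt1a locus, so its reads may be divided with other forms. Gsta1 averaged 347 ± 192 and 443 ± 123, and Sult2b1, a sterol sulfotransferase, 58.6 ± 23.4 and 119 ± 92.2.

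Of 4 gut defence genes reported to respond to FXR agonists, 3 were tested, with 1 above 0 and a median of −0.13. Il18 averaged 230 ± 16.5 and 151 ± 84.3 (log2 difference −0.81, SE 0.42, limma adjusted p = 0.590), Car12 838 ± 419 and 955 ± 322, and Ang4 1876 ± 271 and 2068 ± 1199. The fitted Ang4 difference was −0.13, opposite in sign to its means. The fourth, Nos2, was at most 7.67.

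**Figure D4:**
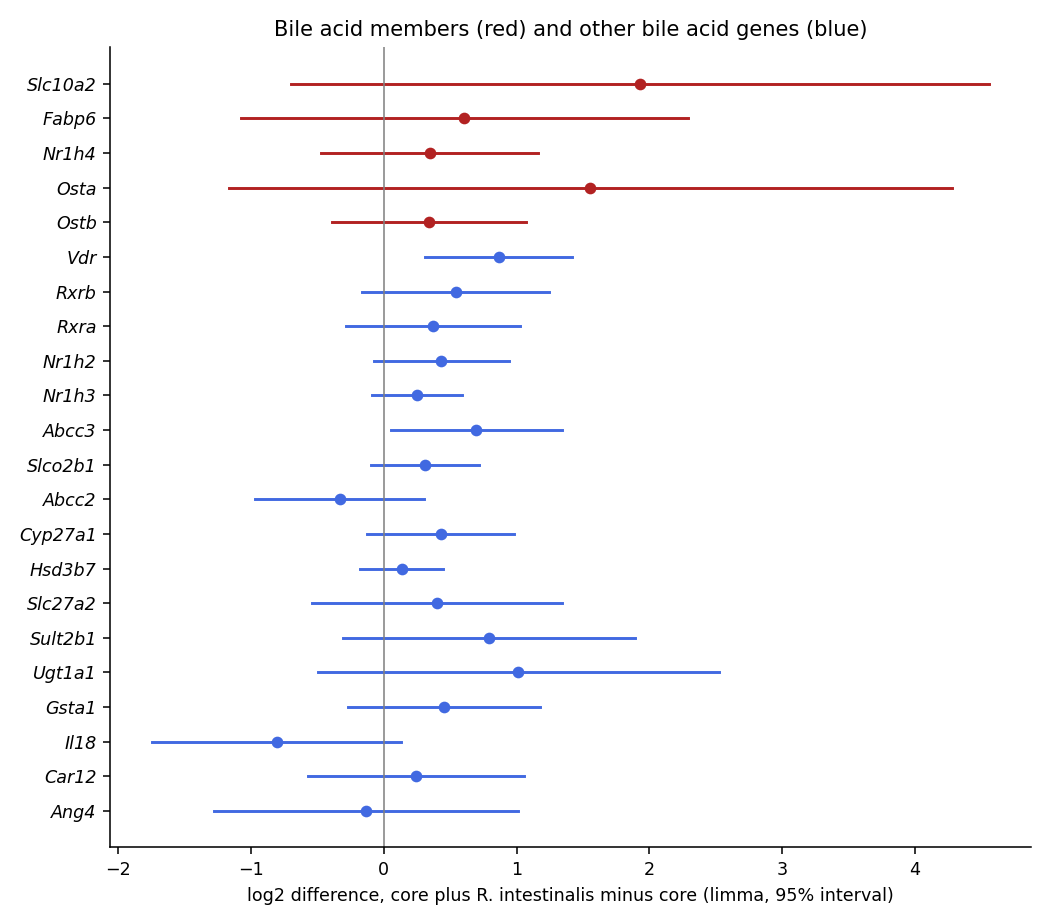
Log2 difference, Roseburia minus core, with its 95% interval (limma), for the 5 members tested (red) and genes with the smallest p-values in each of 6 lists of other bile acid genes (blue). Slc10a2 and Osta have the widest intervals, and Vdr and Abcc3 have intervals above 0 but adjusted p-values of 0.588.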

How the data were processed

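Messenger RNA of 8 libraries was analysed from 1 deposited table. Bowtie2, RSEM 1.2.23 and mm9 are listed, per the submitters' processing notes, without roles. Which annotation was counted, and what computed the posterior probabilities, is not given in the sources used here. Per the file headers and the values, the deposited signal is each library's estimated reads divided by 1 factor. The authors also deposited a posterior probability of differential expression per gene, a score from 0 to 1, and linear fold ratios, Roseburia libraries over core.

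The worth of 1 read was estimated from the step on which low values cluster; 79.8% to 84.5% of values under 30 lay on it (tolerance 0.05), so whole reads were not assumed. Values were used as log2(value + 1). Genes with a mean of at least 10 were fitted with limma 3.58.1 in R 4.3.3 (trended prior variance) as Roseburia minus core, with Benjamini-Hochberg adjustment over all of them and a threshold of 0.05; the script was tested on simulated data. Intervals are limma's 95% intervals. Members and lists were chosen with earlier results of these data known. Named genes are the members, the 3 smallest p-values of each pathway list, the 3 highest means of the 2 marker lists shown with Hoxb13, and the 4 genes most like each member; others were named after their values were seen. Predicted, Riken, ribosomal and antigen receptor genes were left out. Alternatives were other pseudocounts, filters, normalizations, library weights, no trend, a replicate block, covariates and leaving out each library. Promoters are RefSeq's (GRCm38.p6), matched by symbol for 5 of 6 members; mm9 coordinates were not used. One gene that this rule names is not reported here.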

Additional observations from a re-analysis of the deposited data

Results flagged for a closer look

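In the 5 Roseburia libraries, 30 named genes were checked for a library far from the other 4, and 4 had one. For normally distributed values chance flags about 1 group in 20, a rate that need not hold for these genes. Fgf15 was 2.16 in replicate 2 and 0 in the rest, a difference of 2 estimated reads, so its flag was fixed by the values of 0. Rxra (566.72), Abcc3 (2180.74) and Sult2b1 (277.76) were each far above the others in replicate 1. These flags share 1 library, so they are not separate observations.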

How the results depend on the processing

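The 5 members stayed short of the threshold under each alternative run. They kept their direction under each except the B4galnt2 covariate, chosen after seeing the data and highest in the same libraries as the members. Their adjusted p ran from 0.106 (Slc10a2, library weights) to 0.986 (Fabp6, without core replicate 1). With that covariate the log2 differences were −0.14 (Slc10a2), −0.34 (Fabp6), −0.26 (Nr1h4), −0.64 (Osta, adjusted p = 0.164) and −0.22 (Ostb), and those of Ugt1a1, Gsta1 and Car12 were −0.21, −0.026 and −0.29. Without 1 library the differences ran from 0.79 to 3.34 (Slc10a2), 0.095 to 1.202 (Fabp6), 0.05 to 0.71 (Nr1h4), 0.39 to 2.94 (Osta) and 0.06 to 0.68 (Ostb). Car12 (−0.17 to 0.61) and Ang4 (−0.39 to 0.29) changed sign. Genes past the threshold numbered 455 with limma's library weights, which gave Roseburia replicate 3 a weight of 7.98, and 0 to 1 without single libraries (1 without core replicate 1). The weights called 0 members and 3 pathway genes, among them Vdr (1.04) and Abcc3 (0.76), and turned Ang4 to 0.52. The cause of these changes was not tested. With the replicate number as a replicate block, 0 genes passed, the Slc10a2 and Fabp6 differences were 1.92 and 0.06, and Ang4 turned to 0.18; same-numbered libraries did not deviate together (correlations −0.53 to −0.07), so the numbers do not pair them. No correlation of members was tested, so its alternatives were not run. Of the members, depth limits Fgf15 most, with 2 estimated reads in all.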

Other observations

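Markers of secretory and colonic cells also differed between libraries. Of the Paneth cell list, 4 genes were tested, and Itln1, Mmp7 and Reg3g, named after their values were seen, were highest in core replicate 3 and Roseburia replicates 2, 3 and 4. The fourth, Lyz1, was not: it was highest in Roseburia replicate 5 (253.53), and core replicate 2 (164.61) was above core replicate 3 (130.12). Reg3g, an antimicrobial lectin, was 230.75, 81.95, 57.10 and 190.00 in those libraries and 4.26 to 28.57 in the rest. Having these 4 libraries highest holds for 3.33% of all genes tested. Aqp8, a water channel of the colon surface, was 47.42 and 101.49 in Roseburia replicates 2 and 4 and 344.40 in core replicate 3, but 1255.26 to 2866.49 in the other 5 libraries. Car1, a carbonic anhydrase, had its 4 highest values, 53024 to 109366, in the libraries where Slc10a2 was highest.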
